A study of Homo sapiens with 6 samples.

Results

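The 10 genes described here encode cyclins and cyclin-dependent kinases (CDKs) that carry a cell from G1 into mitosis. They are the D-type cyclins *CCND1* and *CCND3* with *CDK6*, and the E-type cyclins *CCNE1* and *CCNE2* with *CDK2*. To these come the A- and B-type cyclins *CCNA2*, *CCNB1* and *CCNB2* with *CDK1*. *CDK4*, the other kinase of D-type cyclins, is not among the 10 and is given beside *CDK6*. The 10 genes were chosen by name, and each was found by its gene symbol at 1 locus of the deposited table. That table holds 406165 assembled loci and 22933 gene symbols. The question was how the transcripts of this cell cycle engine stood 4 hours after Dox in PC-3 cells carrying an inducible tristetraprolin (TTP) transgene. PC-3 is an established prostate adenocarcinoma line derived from a bone metastasis. All cells had first received a retrovirus for the Tet-On Advanced transactivator rtTA2 and been selected in G418. They were then infected with a second retrovirus in which the PGK promoter drives tdTomato, either alone (tdTom, the control) or together with TTP under the Dox-responsive Tight promoter (TTP-tdTom), and the infected cells were sorted by flow cytometry, with no single clone named. Both groups, with 3 samples each, were given 300 ng/ml doxycycline (Dox) for 4 hours. By design they differed in the TTP cassette, and they were also separately infected populations. The deposited values are FPKM (by the name of the unit, fragments per kilobase of transcript and per mapped fragments of the library), with 1 value per group and locus. Each difference below is therefore a ratio of 2 group values with no replicate error, no test and no p-value. The scaling used between libraries was not examined here. The depth behind a value is unknown, since the sources used here give the read pairs planned and not those obtained.

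Cyclins are the regulatory subunits of CDKs, and most of them are made and destroyed in each division. D-type cyclins with CDK4 or CDK6 begin the phosphorylation of the retinoblastoma protein in G1, E-type cyclins with CDK2 complete it and start DNA replication, cyclin A2 serves CDK2 in S phase and CDK1 later, and B-type cyclins with CDK1 drive mitosis. TTP, the product of *ZFP36*, is a zinc finger protein that binds AU-rich stretches of 3′UTRs, typically around UAUUUAU, and brings the mRNA to the decay machinery.

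*ZFP36* itself did not separate the groups. Its FPKM was 5.56 in tdTom and 5.54 in the group labelled TTP-tdTom, so the table does not show the transgene at this locus, and whether transgene fragments could be counted there was not analysed here. Every direction below is therefore that of the group labelled TTP-tdTom. As a check of the cell type, the epithelial markers *KRT8*, *KRT18*, *KRT19* and *EPCAM* lay between 15.1 and 98.2 FPKM in tdTom, while *CDH1* was at 0.119. Of 6 markers of other cell types, 4 were below 1 FPKM in tdTom and 3 in the group labelled TTP-tdTom, and the exceptions were *COL1A1* (4.34 and 4.56 FPKM), *COL1A2* (listed at 0 in tdTom and 1.38 FPKM in the group labelled TTP-tdTom) and *CD68*, whose row is shared with neighbouring genes and gives no value for it alone.

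In all, 5 of the 10 genes were lower by at least 1.5-fold in the group labelled TTP-tdTom: *CCNA2*, *CDK1*, *CCNE2*, *CCND1* and *CDK6*. The other 5, *CDK2*, *CCNB2*, *CCNB1*, *CCNE1* and *CCND3*, stayed within 1.5-fold, and 0 were higher by that much. All 10 passed the filter (an FPKM of at least 1 in at least 1 group and above 0 in both), which 13004 gene symbols passed. Of those 13004, 22.8% were lower by at least 1.5-fold and 3.9% higher. At a fold of 2, 3 of the 10 genes were lower (*CCNA2*, *CDK1* and *CCNE2*), against 8.65% of all genes. The median log2 fold change of the 10 was -0.68 and that of all 13004 genes -0.23, and because the whole distribution was shifted, each gene is also given relative to this median gene. On that scale 8 of the 10 lay below the median gene and 2, *CCNE1* and *CCND3*, above it. The genes were picked with earlier results of these data known, so these counts describe the list and nothing more is read from them. Every scaling adds the same amount to all log2 fold changes and so leaves the order of the genes as it is. When both groups were set to an equal FPKM sum over all 406165 loci, every gene was shifted up alike by 3.09 on the log2 scale and all 10 came out above tdTom. Of that sum, 99.8% in tdTom and 98.4% in the group labelled TTP-tdTom fell on loci without a gene symbol. Directions below refer to FPKM as deposited unless another scale is named.

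**Figure D1:**
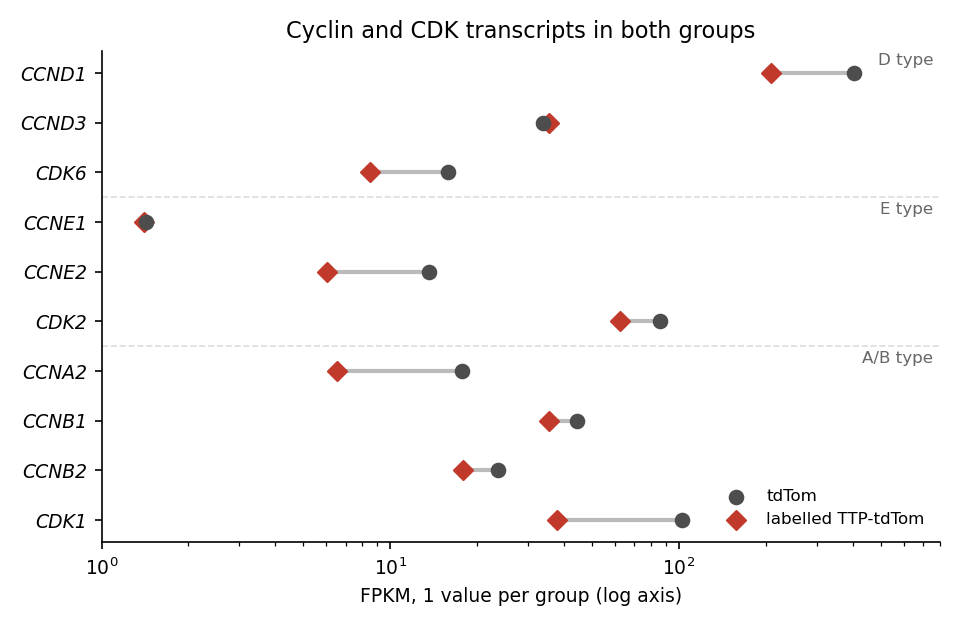
FPKM of the 10 genes (log axis, 1 value per group) in tdTom (circles) and in the group labelled TTP-tdTom (diamonds), with a line joining both values of a gene and no error bars because the table holds none. In FPKM as deposited (the directions turn when the sum over all loci is equalised) the longest lines belong to *CCNA2*, *CDK1* and *CCNE2*, and the symbols of *CCND3* and *CCNE1* overlap.

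**Figure D2:**
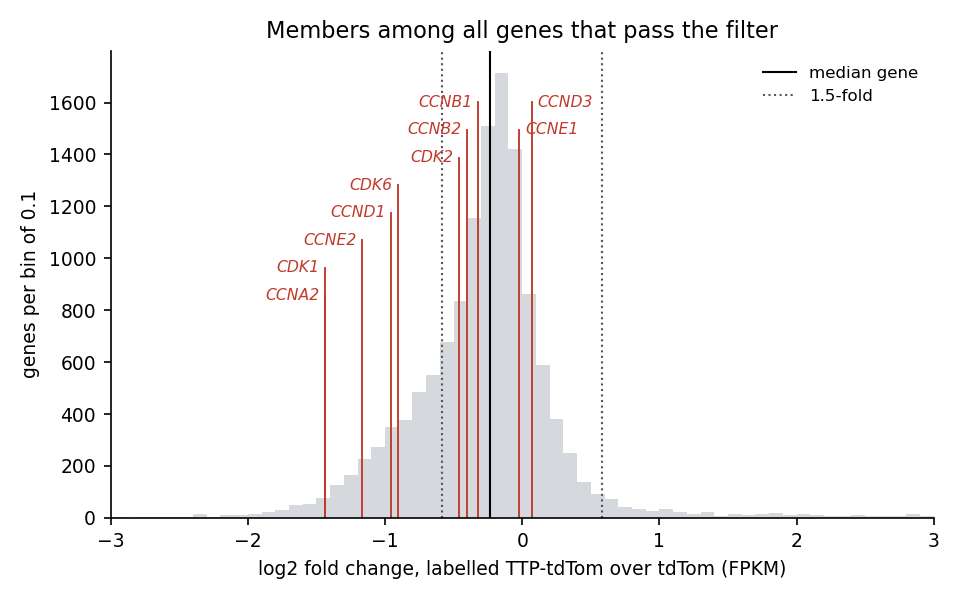
Histogram of the log2 fold change (group labelled TTP-tdTom over tdTom, FPKM as deposited) for the 13004 genes that pass the filter, in bins of 0.1 between -3 and 3 (94 genes lie beyond these ends), with the 10 genes as labelled lines, the median gene as a solid line and 1.5-fold as dotted lines. *CCNA2* and *CDK1* coincide at -1.44, and *CCNE1* and *CCND3* lie to the right of the median gene at -0.23.

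In the D-type arm, *CCND1* and *CDK6* were lower and *CCND3* was not. *CCND1* (chromosome 11 of GRCh37, 69455873 to 69469242), the D-type cyclin that links growth factor signals to the cell cycle, had an FPKM of 404 in tdTom and 208 in the group labelled TTP-tdTom. Its log2 fold change was -0.96, or -0.72 relative to the median gene, and 9.85% of all genes had a lower one. Among the 13004 genes *CCND1* was above 98.8% in tdTom and still above 97.7% in the group labelled TTP-tdTom. *CCND3* (chromosome 6, 41901399 to 42016610) had 33.7 and 35.4 FPKM, a log2 fold change of 0.07 that lay above that of 83.6% of all genes. The ratio of *CCND1* to *CCND3* was thus 12.0 in tdTom and 5.88 in the group labelled TTP-tdTom. *CDK6* (chromosome 7, 92234235 to 92465941), a catalytic partner of D-type cyclins, had 15.9 and 8.48 FPKM, a log2 fold change of -0.90, and 53.5% of the tdTom level. Its sister kinase *CDK4* kept 88.2% of its tdTom level, with 23.1 and 20.4 FPKM, so *CDK4* exceeded *CDK6* by a ratio of 1.46 in tdTom and 2.40 in the group labelled TTP-tdTom. The ratio of *CCND1* to *CDK6* was nearly the same in both groups, 25.5 and 24.6. The third D-type cyclin, *CCND2*, was at 0.181 and 0.245 FPKM and did not pass the filter.

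*CCND1* and *CDK6* carry the heptamer TATTTAT, the DNA spelling of the core AU-rich site, in the longest 3′UTR that GENCODE release 29 annotates for them, and these sites are shown because TTP is known to bind such stretches. Each line gives 30 bases of the transcript from 5′ to 3′ with the heptamer in capitals. *CCND1* holds 1 copy at position 1423 of 3192 bases, and *CDK6* holds 3, at positions 3893, 7471 and 9911 of 10219 bases. *CDK2*, which is described with the E-type arm, is added because it stayed within 1.5-fold while carrying 1 copy, at position 924 of 1159 bases.
CCND1 site: gctaaaaagtaTATTTATtgcagaggatgt
CDK6 first site: aaactcttagaTATTTATataattcaaaag
CDK6 second site: ttcatgtatgtTATTTATttctgaatcaca
CDK6 last site: gaaaatgtaggTATTTATtgtcagatgatg
CDK2 site: atgaacaattaTATTTATatttcaggttat
The second *CDK6* site is also the only match of the 10 genes to the longer nonamer TTATTTATT. *CCND3* has 0 heptamers in 1007 bases and *CDK6* has the longest 3′UTR of the 10.

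In the E-type arm the 2 cyclins parted. *CCNE2* (chromosome 8, 95835332 to 95907482) was at 13.6 FPKM in tdTom and 6.04 in the group labelled TTP-tdTom, a log2 fold change of -1.17 that 5.30% of all genes undercut. *CCNE1* (chromosome 19, 30302901 to 30315295) was at 1.42 and 1.40 FPKM, with a log2 fold change of -0.02 that turned to 0.03 when both groups were set to an equal FPKM sum over the loci with a symbol. Both encode activators of CDK2 at the start of S phase, and *CCNE2* supplied 90.5% of their summed FPKM in tdTom and 81.2% in the group labelled TTP-tdTom. The ratio of *CCNE2* to *CCNE1* was 9.55 and 4.31. *CCNE2* has 3 heptamers in a 3′UTR of 1862 bases and *CCNE1* has 0 in 531. *CCNE1*, above only 10.1% of all genes in tdTom, stood just over the filter. *CDK2* (chromosome 12, 56360556 to 56366877), the kinase of this arm, had 86.0 and 62.4 FPKM, a log2 fold change of -0.46, or -0.23 relative to the median gene, and 72.5% of the tdTom level. Its ratio to *CCNE2* was 6.34 in tdTom and 10.3 in the group labelled TTP-tdTom. *CCNE2* shares its assembled locus with *INTS8* (78.9 and 61.0 FPKM), which GENCODE places on the opposite strand with an overlap of 1977 bases. The libraries were strand-specific, but the strand setting of the counting is not given in the sources used here, so some fragments of the overlap may not be told apart.

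In the mitotic arm, *CCNA2* and *CDK1* had the lowest fold changes of the 10 genes, and the B-type cyclins stayed near the median gene. *CCNA2* (chromosome 4, 122722472 to 122745088), the cyclin of S phase and G2, had 17.8 FPKM in tdTom and 6.55 in the group labelled TTP-tdTom. Its log2 fold change was -1.44, or -1.21 relative to the median gene, and 36.8% of the tdTom level was left. *CDK1* (chromosome 10, 62536118 to 62558185), the kinase of mitosis, had 102 and 37.8 FPKM and the same log2 fold change of -1.44, with 37.0% left. Only 2.29% of all genes lay lower than *CCNA2*, and 2.34% lower than *CDK1*. Their ratio to each other was accordingly the same in both groups, 5.75 in tdTom and 5.77 in the group labelled TTP-tdTom. *CCNB1* (chromosome 5, 68462480 to 68474078), the main mitotic partner of CDK1, had 44.4 and 35.5 FPKM, a log2 fold change of -0.32 and -0.09 relative to the median gene. *CCNB2* (chromosome 15, 59397284 to 59417244), the second B-type cyclin, had 23.6 and 17.9 FPKM, a log2 fold change of -0.40 and -0.17 relative to the median gene. The B-type cyclins therefore kept 79.9% and 75.8% of their tdTom levels, and their ratio was 1.88 in tdTom and 1.98 in the group labelled TTP-tdTom. The ratio of *CDK1* to *CCNB1* in FPKM was 2.30 in tdTom and 1.06 in the group labelled TTP-tdTom. *CCNA1*, the germ cell A-type cyclin, was at 0.0957 and 0.0829 FPKM at its main locus and did not pass the filter. A second assembled locus of that symbol, spanning the same stretch, was listed at 0 in tdTom and at 4.86 FPKM in the group labelled TTP-tdTom. *CCNA2* shares its assembled locus with *EXOSC9*, a gene of the RNA exosome on the opposite strand with 468 bases of overlap, which was at 19.5 and 10.8 FPKM. Its log2 fold change was -0.86, closer to 0 than that of *CCNA2*, and how far fragments of one gene enter the other was not tested.

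Neither *CCNA2* nor *CDK1* holds the heptamer in its longest 3′UTR (1194 and 1109 bases), although they had the lowest fold changes. They hold the pentamer ATTTA, which is part of every heptamer and occurs in 74.0% of genes, and all its copies in both are shown, pentamer in capitals, since neither the heptamer nor the nonamer, the longer motifs searched, was found.
CCNA2 position 279: tttgcaagtcaaATTTAacttcttcaggat
CCNA2 position 889: agcaaagtaagaATTTActaagagtatgtt
CCNA2 position 1010: tttatattatagATTTAggtcctaattttt
CDK1 position 408: tattctatatgaATTTAaatataattctgt
CDK1 position 573: ggaactactaaaATTTAggaaaatgctaag
CDK1 position 782: aaatgatgctaaATTTAtaggagttttcag
CDK1 position 892: acagttttgaaaATTTAtgaactatcttat
CDK1 position 1071: gctctaatgtatATTTAactaaaattacta
*CCNB1* has 4 pentamers in 614 bases, which is 6.51 per kilobase and the densest of the 10 genes, and *CCNB2* has 0 in 1378 bases, and they kept 79.9% and 75.8% of their tdTom levels.

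Across the 10 genes the heptamer did not order the fold changes. In the longest 3′UTR it was present in 4, *CCND1*, *CCNE2*, *CDK6* and *CDK2*, of which 3 were among the 5 genes lower by at least 1.5-fold. In the shortest annotated 3′UTR it was present in 1 of the 10, *CDK6*. Over the 11053 genes that passed the filter and had a 3′UTR sequence (85.0% of 13004), 36.3% held the heptamer in the longest 3′UTR. In these, the median log2 fold change was -0.17 with 0 copies, -0.36 with 1, -0.52 with 2 and -0.63 with 3 or more. The share lower by at least 1.5-fold went from 14.2% with 0 copies to 52.6% with 3 or more. *CCNA2* and *CDK1* were thus among the 14.2% of genes without a copy that were lower by that much. Of genes in the same decile of transcript GC content, 62.9% were lower by that much for *CDK1* and 36.3% for *CCNA2*. Heptamer copies were not separated from GC content or 3′UTR length, which also moved with the fold change. A match to these letters is a description of the sequence and not a binding site.

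The GC content of the transcript moved with the fold change. Over the 11053 genes Spearman's rho between GC content and log2 fold change was 0.48, given as a description, since the genes share the same libraries. The decile of genes with the lowest GC content (28.6% to 38.3%) stood at a median of -0.76 on the log2 scale, and 62.9% of them were lower by at least 1.5-fold. In the decile with the highest GC content (61.5% to 74.6%) the median was -0.09 and the share 3.80%. The 5 genes lower by at least 1.5-fold had a GC content between 35.1% (*CDK1*) and 50.3% (*CCND1*), and the other 5 between 43.2% (*CCNB1*) and 60.0% (*CCND3*). Relative to the median of its own decile, *CCNA2* lay at -1.02 on the log2 scale, the largest distance of the 10. *CCND1* followed with -0.76, *CDK1* with -0.68, *CCNE2* with -0.41, *CDK6* with -0.33 and *CDK2* with -0.27. *CCNB2* and *CCNB1* lay at -0.06 and 0.01 from the median of genes of like GC content, and *CCNE1* and *CCND3* at 0.12 and 0.18. The part of GC content in these fold changes was not tested. The length of the 3′UTR moved with the fold change as well, and its median over genes was -0.14 for the shortest decile of 3′UTRs and -0.39 for the longest, which includes *CDK6*.

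**Figure D3:**
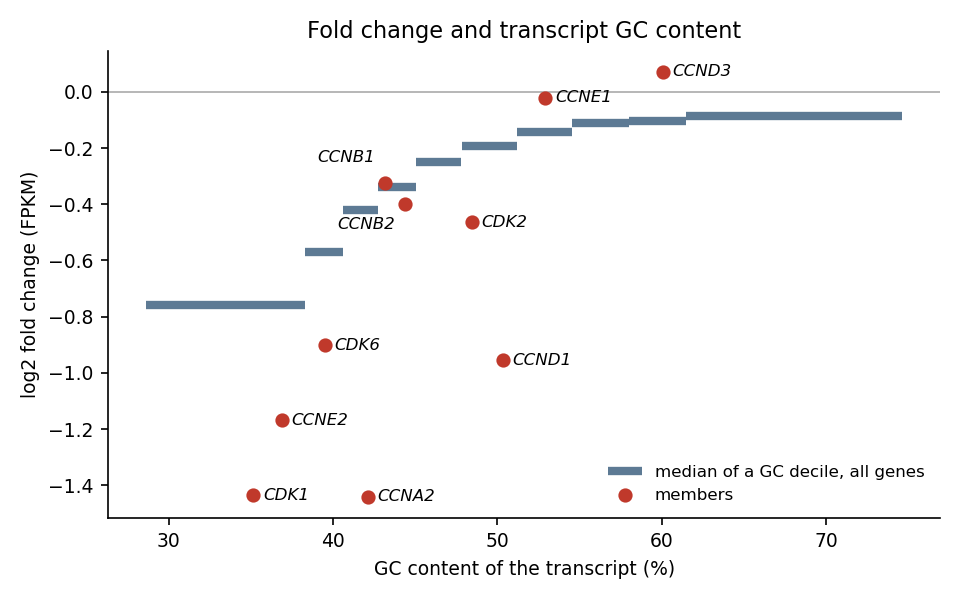
Log2 fold change (group labelled TTP-tdTom over tdTom, FPKM as deposited) against the GC content of the transcript with the longest 3′UTR. Bars span the deciles of 11053 genes by GC content at their median fold change, and points are the 10 genes. *CCNA2* and *CCND1* lie farthest below the bar of their own GC content, and *CCNB1* lies on its bar.

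The make-up of several pools of transcripts differed between the groups, given as shares of summed FPKM, which is per length and can be summed within a pool. The B-type cyclins differed little, with *CCNB1* at 65.3% of their sum in tdTom and 66.5% in the group labelled TTP-tdTom. The 10 genes summed to 743 FPKM in tdTom and 420 in the group labelled TTP-tdTom, or 56.5% of the tdTom sum. The sum over all 13004 genes that passed was 122% of its tdTom value. That sum counts a row shared by several symbols once for each symbol and is no measure of the typical gene. The 16 reference genes summed to 6845 FPKM in tdTom and 5693 in the group labelled TTP-tdTom. Such sums do not follow the single gene, since the median gene was at -0.23 on the log2 scale and the sum over all loci with a symbol was 514750 FPKM in tdTom and 496521 in the group labelled TTP-tdTom. *CCND1* alone made up 54.4% of the sum of the 10 in tdTom and 49.6% in the group labelled TTP-tdTom. Among D-type cyclins, *CCND3* went from 7.70% to 14.5% of the summed FPKM without being higher by 1.5-fold itself. Among the A- and B-type cyclins, *CCNA2* went from 20.7% to 10.9%. Among the 3 kinases, *CDK1* was the most abundant in tdTom with 50.1% and *CDK2* in the group labelled TTP-tdTom with 57.4%, while the share of *CDK6* was 7.77% and 7.81%. These shares do not depend on the scaling between the groups. By transcript level per length, the order of the kinases in tdTom was *CDK1*, *CDK2*, *CDK4*, *CDK6*, and in the group labelled TTP-tdTom it was *CDK2*, *CDK1*, *CDK4*, *CDK6*. Whether neighbours in these orders differ beyond the spread between samples cannot be read from 1 value per group.

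**Figure D4:**
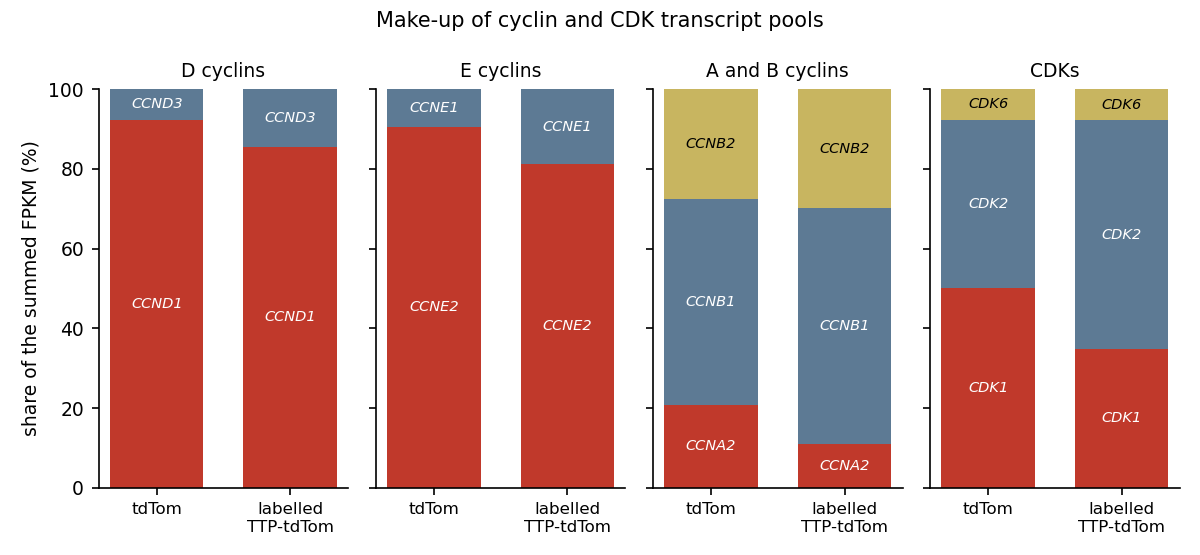
Share of the summed FPKM (%, axis from 0 to 100) that each gene supplies to the D-type cyclins, the E-type cyclins, the A- and B-type cyclins and the kinases CDK1, CDK2 and CDK6, in tdTom (left bar) and in the group labelled TTP-tdTom (right bar), with 1 value per group and no error bars. *CCNA2* goes from 20.7% to 10.9% of its pool and *CDK1* from 50.1% to 34.8%.

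Promoters of the mitotic arm are shown because *CCNA2* and *CDK1* had equal fold changes while *CCNB1* and *CCNB2* lay nearer the median gene, and these genes are known as targets of shared cell cycle promoter elements. The lines give the 250 bases before the RefSeq start on GRCh38.p14, read 5′ to 3′ on the strand of the gene. Capitals mark CCAAT, the box bound by NF-Y, and the cell cycle homology region, searched as TTTGAA or TTCGAA, both on either strand. *CCNA2* is on the minus strand and the others are on the plus strand, and none of the motif letters overlap.
CCNA2 chr4:121823884-121824133: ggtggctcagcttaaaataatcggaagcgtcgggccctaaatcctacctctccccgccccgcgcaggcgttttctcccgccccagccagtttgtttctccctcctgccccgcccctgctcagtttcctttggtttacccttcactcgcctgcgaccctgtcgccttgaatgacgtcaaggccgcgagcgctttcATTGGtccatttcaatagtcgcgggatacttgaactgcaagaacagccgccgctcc
CDK1 chr10:60778081-60778330: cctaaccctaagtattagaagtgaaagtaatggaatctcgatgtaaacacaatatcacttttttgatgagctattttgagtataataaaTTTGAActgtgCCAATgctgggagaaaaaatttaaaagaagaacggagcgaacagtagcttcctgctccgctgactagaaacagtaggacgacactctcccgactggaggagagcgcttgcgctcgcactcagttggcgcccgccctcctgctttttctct
CCNB1 chr5:69166900-69167149: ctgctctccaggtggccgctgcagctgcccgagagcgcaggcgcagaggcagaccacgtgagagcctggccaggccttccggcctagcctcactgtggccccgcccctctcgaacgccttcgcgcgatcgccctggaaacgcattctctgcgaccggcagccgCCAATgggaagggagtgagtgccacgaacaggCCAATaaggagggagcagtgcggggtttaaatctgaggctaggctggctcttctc
CCNB2 chr15:59104896-59105145: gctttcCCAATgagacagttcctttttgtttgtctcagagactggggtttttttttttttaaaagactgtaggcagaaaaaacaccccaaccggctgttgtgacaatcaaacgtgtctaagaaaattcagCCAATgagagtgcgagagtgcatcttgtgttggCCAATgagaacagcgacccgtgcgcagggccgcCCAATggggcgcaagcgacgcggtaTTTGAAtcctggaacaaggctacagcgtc
For *CDK1* the window before the upstream of 2 starts is printed; it holds 1 CCAAT and 1 homology region, while the window of the downstream start, which lies partly inside the transcript of the first, holds 2 of each before its start. *CCNA2* holds 1 CCAAT and 0 homology regions in these letters, *CCNB1* holds 2 and 0, and *CCNB2* holds 4 and 1. Other spellings of the homology region were not searched, so a count of 0 does not show that a promoter lacks the element. In windows that include the 50 bases after the start, 34.6% of all 35116 RefSeq promoters hold CCAAT, 16.4% the homology region and 6.4% both. RefSeq promoters were matched for 7 of the 10 genes. All 4 mitotic genes hold at least 1 CCAAT, so its presence does not set *CCNA2* and *CDK1* apart from the B-type cyclins, and of the other genes with a window, *CCND3* holds 1 CCAAT in 2 of its 3 windows while *CDK6* and *CCNE1* hold 0 of either motif.

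The further cyclins and CDKs also had medians below the median gene. A list of 22 further genes held cyclins and *CCNDBP1*, which encodes a protein that binds D-type cyclins, is no cyclin itself and shares its row with *TMEM62*. Of the 22, 15 passed the filter with *CCNDBP1* among them, 5 were lower by at least 1.5-fold (33.3%, against 22.8% of all genes) and 0 were higher, with a median log2 fold change of -0.49. *CCNC*, the cyclin of the Mediator kinase, had 40.3 and 14.9 FPKM and a log2 fold change of -1.44, level with *CCNA2* and *CDK1*. *CCNH* followed with 23.1 and 11.8 FPKM and *CCNJ* with 4.25 and 2.53, and *CCNJL* was highest at 4.86 and 6.45. Of 18 further CDK genes, 15 passed, 4 were lower by at least 1.5-fold (26.7%, close to the 22.8% of all genes) and 0 were higher, with a median of -0.42. The lowest were *CDK19* (3.80 and 1.26 FPKM), *CDK17* (10.8 and 4.33) and *CDK8* (8.76 and 5.07), and *CDK10* was highest at 8.61 and 9.24. *CDK11A* and *CDK11B*, near-identical neighbours, share 1 row of the table and cannot be told apart, and this row is counted for both among the 15. After centring on the median gene, 2 of 15 in each list were lower by 1.5-fold, and so were 13.6% of all genes.

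In the list of genes that set CDK activity 5 of 10 genes were lower by at least 1.5-fold (22.8% of all genes were) and 0 were higher, with a median log2 fold change of -0.41. All 3 subunits of the CDK-activating kinase, which phosphorylates the activation loop of CDKs, were among these 5: *MNAT1* had 112 and 44.6 FPKM, *CCNH* the values above, and *CDK7* 19.9 and 13.1. *CCNH* and *CDK7* are counted among the further cyclins and CDKs as well. *CDC25A*, a phosphatase that removes inhibitory phosphates from CDK2 and CDK1, had 13.7 and 8.39 FPKM, and *PKMYT1*, a kinase that inhibits CDK1, had 2.73 and 1.70, so the 5 are not all activators. *CKS2*, a small CDK subunit, was highest at 88.2 and 98.0. After centring on the median gene, 2 of these 10, *MNAT1* and *CCNH*, were lower by 1.5-fold, against 13.6% of all genes. Among the CDK inhibitors, 7 of 8 passed, 1 was lower by at least 1.5-fold (14.3%, below the 22.8% of all genes) and 0 were higher. That gene, *CDKN1B*, which encodes p27, had 5.00 and 3.01 FPKM and was within 1.5-fold after centring, while 3 inhibitors were lower by 1.5-fold when FPKM was summed over all loci of a symbol, where 22.4% of all genes were. *CDKN2B* had 1.93 and 1.30 FPKM, *CDKN2C* 14.6 and 10.6, and *CDKN2D* 43.4 and 43.5 in a row shared with *KRI1*, so that these 2 genes cannot be told apart. None of the 7 inhibitors that passed was higher by 1.5-fold in the group labelled TTP-tdTom, and 3.9% of all genes were.

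*RB1*, the classic substrate of these kinases, had the lowest fold change of all listed genes that passed the filter. Of 21 genes for pocket proteins, E2F factors and the DREAM complex, which together hold cell cycle promoters off or on, 8 were lower by at least 1.5-fold (38.1%, against 22.8% of all genes) and 1 was higher, with a median log2 fold change of -0.49. Centred on the median gene, 8 of the 21 were lower by 1.5-fold, against 13.6% of all genes. *RB1*, which encodes the retinoblastoma protein, had 35.4 and 11.4 FPKM and a log2 fold change of -1.63. *LIN52* had 15.9 and 5.79 FPKM and *MYBL1* 15.5 and 6.50, and *E2F2* was the higher one with 1.48 and 2.27. In the list for cyclin destruction by the SCF and APC/C ubiquitin ligases, 5 of 25 genes, or 20.0%, were lower by at least 1.5-fold, against 22.8% of all genes, with a median of -0.27, and after centring on the median gene 1 was, against 13.6%. The lowest were *ANAPC10* (8.32 and 4.68 FPKM), *CDC27* (54.4 and 32.1) and *UBE2S* (68.2 and 40.9), and *BTRC* was highest at 4.02 and 5.12.

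Genes that act in S phase and mitosis stood closer to the median gene than *CCNA2* and *CDK1*. Of 20 S phase genes, 3 were lower by at least 1.5-fold (15.0%, against 22.8% of all genes), and after centring on the median gene 1 was, against 13.6%. They included *RRM2* (181 and 103 FPKM) and *TYMS* (33.8 and 22.5 FPKM), which act in nucleotide synthesis. The list's median log2 fold change was -0.21, and *CDT1*, a licensing factor, was highest with 17.5 and 19.9 FPKM. Of 20 genes of G2 and mitosis, 4 were lower by at least 1.5-fold (20.0%, against 22.8% of all genes) and 0 were higher, with a median of -0.41. Centred on the median gene, 3 of these 20 were lower by 1.5-fold, against 13.6% of all genes. The lowest were the spindle checkpoint gene *MAD2L1* (20.8 and 8.05 FPKM), *HMMR* (27.0 and 12.4) and the kinesin *KIF23* (41.0 and 21.2), and *TTK* was highest with 16.0 and 15.6. All 20 of these were below tdTom in FPKM as deposited, as were all 16 reference genes, whose median log2 fold change was -0.30, whereas 15 of the 20 and 10 of the 16 were below the median gene. In bulk RNA, fewer cells in a phase and less RNA per cell cannot be told apart.

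**Figure D5:**
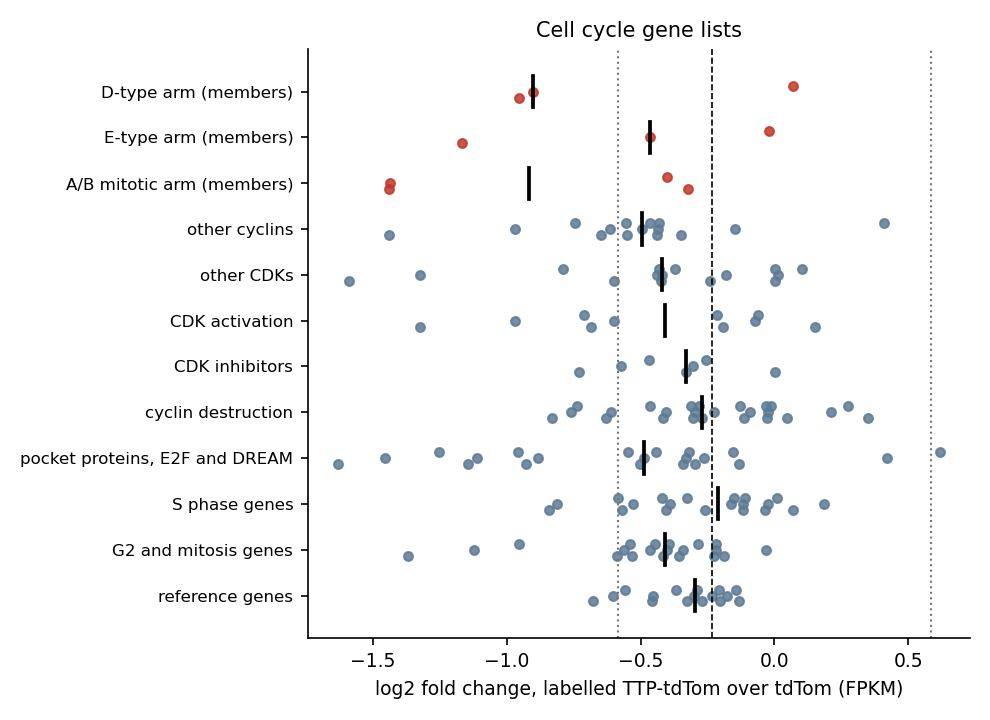
Log2 fold change (group labelled TTP-tdTom over tdTom, FPKM as deposited) of each gene that passes the filter, 1 row per list, with the list's median as a black bar, the median of all 13004 genes as a dashed line and 1.5-fold as dotted lines. The D-type and A/B-type rows each hold genes at about -0.9 or lower beside genes close to the dashed line (*CCNB1*, *CCNB2*) or above it (*CCND3*), and the S phase genes gather around the dashed line with a median of -0.21.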

How the data were processed

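RNA-Seq was performed on 6 samples of PC-3 cells, 3 tdTom and 3 labelled TTP-tdTom. Per the methods and labels, the authors made strand-specific libraries, aligned paired-end reads with TopHat2 2.0.13 to Hs37D5 (GRCh37 with decoys), and assembled and compared transcripts with Cufflinks 2.2.1. The deposited FPKM values are 1 per group and locus, with replicates pooled, and the scaling used between libraries was not examined here. Fold changes, p-values and q-values of the authors' own comparison stand in other columns and were not used. Values of the single samples and counts were not analysed here, so the depth obtained is unknown (the methods give the read pairs planned per sample) and no interval is given.

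Where several loci carried a symbol, the one with most RefSeq names was taken, and among equals the one with the highest summed FPKM. Log2 ratios of the FPKM were computed without a pseudocount for symbols that reached an FPKM of 1 in either group and were above 0 in both. A ratio of 1.5 was used as the limit for lower and higher, and no test was run. Motifs were sought in the longest 3′UTR of GENCODE release 29 and in RefSeq promoter windows on GRCh38.p14, and no coordinates were carried between builds. Beside the 10 genes, the text names *ZFP36*, *CCND2*, *CCNA1*, *CDK4* and *CCNC*, the marker genes and, from each list, up to 3 genes with the lowest and 1 with the highest ratio. *CDK7*, *PKMYT1*, *KRI1*, *CCNDBP1*, *TMEM62*, *EXOSC9*, *INTS8*, *CDK11A* and *CDK11B* fall outside this rule and were added after their values were seen. Some listed genes are not reported here. The genes and lists were chosen with earlier results of these data known. The functions were checked on values with known folds. Python 3.11.15, numpy 2.4.6, pandas 2.3.3, scipy 1.17.1 and matplotlib 3.10.9 were used.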

Additional observations from a re-analysis of the deposited data

How the results depend on the processing

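No paired analysis was possible because the deposited table holds 1 value per group, and for the same reason the replicate block and leaving out each replicate were not run. The number of genes lower by at least 1.5-fold, 5 of 10, was 5 under both pseudocounts, both FPKM minimums, both choices of locus, both centrings and the rescaling over loci with a symbol. Of the 10, 9 passed the minimum FPKM of 5. The share of all genes lower by that much was 22.3% and 17.9% under pseudocounts of 0.1 and 1. It was 26.3% at a minimum FPKM of 5 and 20.0% with no minimum. Under the choices of locus it was 23.0% and 22.4%, and after rescaling over loci with a symbol 20.5%. The number of the 10 genes was 3 at a fold of 2, where the share of all genes was 8.65% instead of 22.8%. After rescaling over all loci the number was 0, where the share was 0.0769%. That rescaling put the median of the 10 genes at 2.41 and reversed *CCNA2* to 1.65, *CDK1* to 1.66, *CCNE2* to 1.92, *CCND1* to 2.14 and *CDK6* to 2.19, because it adds the same amount to every gene. The median, -0.68 as deposited, was -0.45 after centring on the median gene and -0.39 after centring on the reference genes, where 13.6% and 11.8% of all genes were lower by 1.5-fold. Relative to the median gene it was -0.45, and -0.62 at a minimum FPKM of 5, which leaves out *CCNE1*. In the shortest annotated 3′UTR the heptamer was present in 1 of the 10 genes instead of 4, and in 15.0% of all genes instead of 36.3%. The lack of replicate values and counts limits all of these statements.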
